A study of Mus musculus with 2 samples.

Results

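The genes described here are 9 transcription factor genes of early mesoderm and blood, Mesp1, Mesp2, Msgn1, Mixl1, Hand1, Hand2, Cdx1, Cdx2 and Tal1, out of 21631 protein-coding gene records. They were chosen by name, but with earlier results of these data already known. For each, every chromatin loop was taken that had an anchor at an end of the gene, enclosed the gene, or had an anchor within 500 kb. The contacts were measured by Micro-C, which cuts crosslinked chromatin with micrococcal nuclease, in V6.5 cells, a male mouse embryonic stem cell line grown on gelatin. Both samples received the same control reagent (siGLO, called siControl) at 50 nM with DharmaFECT1 and were frozen 48 hours later, so there was 1 group of 2 samples and no second condition to compare. The data were 1 list of 4982 loops with no values per sample and no read depth, so no spread between replicates could be given and no test was run. The identity of the cells could not be checked against marker genes, since contacts and not transcripts were measured. All coordinates are in mm10.

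A loop is a pair of genomic intervals, its anchors, that touch more often than their surroundings. Loops form when the ring complex cohesin draws chromatin through itself until it meets a barrier, most often the DNA-binding protein CTCF, and some loops also bring promoters to distant regulatory sites. In the embryo, cells that leave the epiblast through the primitive streak become mesoderm. Mixl1 acts in the streak, Mesp1 in the first cardiac mesoderm, Msgn1 and Mesp2 in presomitic mesoderm and forming somites, Hand1 and Hand2 in heart, limb and lateral mesoderm, and Cdx1 and Cdx2 along the posterior axis. Cdx2 is also required in trophectoderm, and Tal1 (also called Scl) starts blood formation. Embryonic stem cells in the pluripotent state have not yet entered these lineages.

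The start sites of 3 of these genes lay inside loop anchors, and the sequence just before them is shown with that of the paralog Mesp2 and of Msgn1, whose start sites lay outside. The RefSeq promoter table (GRCm38.p6) held 6 of the 9 genes, with 7 start sites, of which Tal1 had 2. Hand1, Cdx1 and Mixl1 had no entry. Each line gives the 250 bases before the start, 5′ to 3′ on the strand of the gene, and capitals mark a match to CANNTG, the E-box bound by bHLH proteins such as those of Mesp1, Mesp2, Msgn1, Hand1, Hand2 and Tal1, or to AGGNGGC, a core of the CTCF motif, on either strand.
Mesp1 (chr7:79793591-79793840, minus strand): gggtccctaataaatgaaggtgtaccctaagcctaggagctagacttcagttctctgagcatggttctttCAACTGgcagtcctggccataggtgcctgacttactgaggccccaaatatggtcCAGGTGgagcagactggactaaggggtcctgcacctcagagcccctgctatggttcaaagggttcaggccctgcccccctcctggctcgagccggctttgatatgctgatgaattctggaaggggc
Mesp2 (chr7:79810477-79810726, plus strand): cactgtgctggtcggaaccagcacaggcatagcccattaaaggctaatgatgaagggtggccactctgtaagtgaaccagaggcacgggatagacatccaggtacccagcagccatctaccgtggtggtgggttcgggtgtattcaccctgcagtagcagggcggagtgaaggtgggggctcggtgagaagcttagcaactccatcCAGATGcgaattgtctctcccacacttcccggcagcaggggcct
Tal1, outer start (chr4:115056176-115056425, plus strand): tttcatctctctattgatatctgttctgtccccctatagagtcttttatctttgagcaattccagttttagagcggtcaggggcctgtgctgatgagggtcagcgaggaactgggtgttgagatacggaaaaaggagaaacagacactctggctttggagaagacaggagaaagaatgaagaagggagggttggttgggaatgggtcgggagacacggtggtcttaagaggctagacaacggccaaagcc
Cdx2 (chr5:147307250-147307499, minus strand): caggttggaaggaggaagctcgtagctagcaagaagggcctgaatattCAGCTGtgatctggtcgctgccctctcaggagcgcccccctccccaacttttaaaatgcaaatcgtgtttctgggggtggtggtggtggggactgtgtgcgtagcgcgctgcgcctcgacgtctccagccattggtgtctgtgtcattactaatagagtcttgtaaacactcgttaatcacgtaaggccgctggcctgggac
Msgn1 (chr12:11208949-11209198, minus strand): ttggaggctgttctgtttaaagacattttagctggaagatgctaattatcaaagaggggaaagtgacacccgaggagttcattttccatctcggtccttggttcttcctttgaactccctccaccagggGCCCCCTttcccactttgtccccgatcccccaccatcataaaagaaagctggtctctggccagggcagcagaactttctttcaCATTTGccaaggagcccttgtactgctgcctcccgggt

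In these windows an E-box was found before 5 of the 7 start sites. Mesp1 had 2 E-boxes, CAACTG and CAGGTG, which began 180 and 126 bases before the start, Mesp2 had CAGATG at 44 bases, and Cdx2 had CAGCTG at 202 bases. Neither start of Tal1 had an E-box. Of 21045 promoter windows of the same length in the table, 62.8% held CANNTG. The pattern AGGNGGC was found only in the Msgn1 window, as GCCCCCT at 121 bases, and 28.8% of all windows held it on 1 strand or the other. Other forms of the CTCF motif were not searched for, so a window without this pattern may still hold one. TATAAA, searched on both strands, was in none of the 7 windows and in 11.7% of all. No 2 of these matches overlapped. GC content was 55.2% for Mesp1, 57.6% for Mesp2, 48.8% and 62.8% for the outer and inner starts of Tal1, 55.2% for Cdx2, 49.2% for Hand2 and 50.8% for Msgn1, against a median of 55.6% over all windows. The windows of Mesp1, Tal1 and Cdx2 cover a small part of their 10 or 25 kb anchors, so an absent match there says nothing of the rest of the anchor.

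Loops lay at, around or beside all 9 genes. Mesp1, Tal1 and Cdx2 had a gene end at an anchor, which is 3 of 9, where 9.04% of all protein-coding genes did. Among the 6 genes in the promoter table, the start site itself lay in an anchor for the same 3, where the share over all 17274 genes in the table was 5.20%. The records of Hand1, Cdx1 and Mixl1, the genes without an entry, overlapped no anchor, so leaving them out raised the share among the members. Mesp2, Cdx1, Cdx2, Hand1, Msgn1 and Mixl1 lay wholly between the anchors of at least 1 loop, which is 6 of 9, beside 32.6% of all genes. Cdx2 belonged to both classes. Hand2 belonged to neither. The gene end call of Mesp1 and the enclosure of Mesp2 came from the same loop, so these calls are not separate. Every one of the 9 had an anchor within 500 kb, a share near the 87.4% of all genes. For 8 of 9 an anchor lay within 100 kb, beside 59.6% of all genes.

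**Figure D1:**
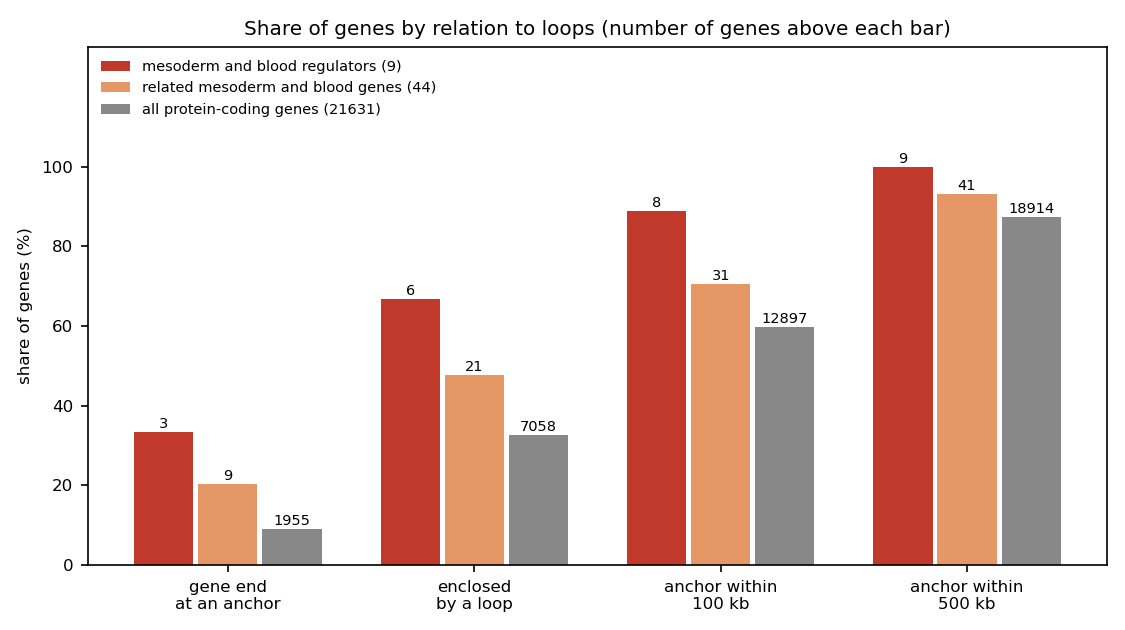
Share of genes (y axis, percent, from 0) with each relation to loops (x axis), for the 9 mesoderm and blood regulators, 44 related genes and all 21631 protein-coding genes, with the number of genes above each bar. The regulators have 3, 6, 8 and 9 genes in the 4 classes, and their share is above that of all genes in each class.

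The 9 genes met 35 distinct loops. Of these, 3 had an anchor at a gene end, 8 others enclosed a gene, and 24 only had an anchor within 500 kb. The farthest such anchor counted was 473 kb from Mixl1, and the nearest left out was 504 kb from Cdx1. Loops of 5, 10 and 25 kb pixels, the bin widths at which the caller listed them, numbered 15, 15 and 5, against 1265, 3047 and 670 in the whole list. Protein-coding genes within 100 kb, which vary with the gene density of a region, numbered from 0 around Hand2 to 8 around Mesp1, with a median of 3 against 4 over all genes. Their part in the counts was not tested. The records of the 9 genes were 567 to 17338 bases long. A shorter record fits more easily between the anchors of a loop, and the part of record length was not tested either.

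Mesp1 and Mesp2, adjacent paralogs that encode bHLH factors, shared 1 short loop but stood in different places in it. Mesp1 (chr7:79792241-79793590) lay whole inside the anchor chr7:79790001-79800000. The other anchor, chr7:79910001-79920000, lay in the gene Ap3s2, a subunit of a vesicle coat complex, 120 kb away. Mesp2 (chr7:79810727-79813431), 17.1 kb from Mesp1, lay between these anchors, 10.7 kb from the first and 96.6 kb from the other. The only other whole protein-coding gene between them was Anpep, an aminopeptidase of the cell surface. From the Mesp1 start, on the minus strand, the far anchor lay upstream, and from the Mesp2 start, on the plus strand, it lay downstream. The loop had a peak score, the caller's unitless measure, of 3.42, at percentile 21.0 of loops of 10 kb pixels, while its peak pixel in the contact map was at percentile 78.6. It was thus low by 1 measure of the caller and high by the other. Peak pixels were ranked among loops of any span, and the span of this loop was at percentile 2.84. The part of span in that rank was not tested.

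No other loop had an anchor within 100 kb of either Mesp gene. A loop of 210 kb ended 442 kb from Mesp1, with ends of Hapln3 and Mfge8 at its far anchor (3.51). The other was one of the longest in the list, 6000 kb, with its nearer anchor at Rhcg, an ammonium transporter gene, 192 kb from Mesp1 (peak score 5.40). Its peak pixel was at percentile 5.30 of loops of 25 kb pixels.

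Msgn1 and Mixl1, which act in presomitic mesoderm and in the primitive streak, lay between anchors but not at them. Msgn1 (chr12:11208382-11208948), an intronless gene of 567 bases, stood in a gap between loops that pointed away from it. On the lower side, loops of 580 and 350 kb ended 28.4 and 38.4 kb from the gene, and both ran over Kcns3, a potassium channel subunit gene. The first of these had a peak score of 8.86, the highest of the 35 loops and at percentile 97.4 of its pixel size. On the upper side, a loop of 1925 kb began at Smc6, a gene of a structural maintenance of chromosomes complex, 91.1 kb away and ended at Ddx1 (5.30).

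The only loop that enclosed Msgn1 spanned 2525 kb. It ran from chr12:8725001-8750000 to chr12:11250001-11275000, where Gen1 and Smc6 have an end, and held 10 protein-coding genes, among them Osr1, a transcription factor of intermediate mesoderm. Its peak score was 6.32, at percentile 94.3 of loops of 25 kb pixels. It was the only one of the 11 loops at or around a gene that was longer than 1 Mb, and without loops over 1 Mb Msgn1 was not enclosed.

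Mixl1 (chr1:180693043-180697034) lay near the upper end of 2 loops of 10 kb pixels. One spanned 480 kb and ended 53.0 kb from the gene at an anchor with an end of Acbd3, a Golgi protein gene. The other spanned 320 kb and ended in the adjoining bin, 63.0 kb from the gene. Their peak scores of 3.73 and 3.70, at percentiles 37.7 and 35.7, were close to each other and below the median of their pixel size. Both enclosed Lin9, a cell cycle regulator gene 2.36 kb from Mixl1, and Parp1, a DNA repair enzyme gene. The smaller held 4 protein-coding genes and the larger 5.

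Hand1 and Hand2, paralogous bHLH factors of the heart, stood in different surroundings. Hand1 (chr11:57828713-57832147) was the only protein-coding gene inside a loop of 110 kb, from chr11:57820001-57825000 to chr11:57930001-57935000. The lower anchor lay 3.71 kb from the gene and the upper one 97.9 kb away. Of 7058 genes that were enclosed by a loop, 17.4% were alone in their smallest loop, and the median enclosed gene was 1 of 4 in its smallest loop. The peak score was 7.31, at percentile 91.8 of loops of 5 kb pixels. A second loop ended at the same upper site and, with a span of 460 kb and a lower anchor 349 kb from Hand1, enclosed it with 4 other genes (peak score 4.42). That loop had a peak pixel at percentile 7.63, the lowest of the 11 loops at or around a gene. No protein-coding gene had an end at the anchors of either loop.

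Hand2 (chr8:57320983-57324517) was enclosed by no loop and had no anchor within 100 kb. It had 0 protein-coding neighbours within 100 kb, and the next such gene, Scrg1, lay 131 kb away. The nearest anchor was 100.5 kb from the gene on the Scrg1 side. It began a loop of 105 kb with a peak score of 6.23, which held Scrg1, Sap30 and Hmgb2. A loop from 110 kb away spanned 360 kb (4.01), and another, from 245 kb away, spanned 220 kb. That last loop had a peak score of 8.26 and a peak pixel at percentiles 98.5 and 99.4 of loops of 10 kb pixels, but none of the 3 reached back toward Hand2.

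The Cdx genes, homeobox genes of the posterior body axis, were enclosed by loops. Cdx2 (chr5:147300900-147307249) lay at the upper edge of a loop of 405 kb, from chr5:146910001-146915000 to chr5:147315001-147320000, with a peak score of 7.46 at percentile 92.8 of loops of 5 kb pixels. The upper anchor lay 7.75 kb upstream of the Cdx2 start, inside Urad, a gene of urate breakdown. Between the anchors were Gsx1 and Pdx1, the other members of the ParaHox cluster, 110.0 and 25.1 kb from Cdx2, along with Gtf3a, Mtif3, Lnx2 and Polr1d. The whole cluster was therefore within this loop. Its peak pixel was at percentile 98.4, the highest of the 11 loops at or around a gene.

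The gene end call for Cdx2 came from a coarser loop over the same upper site. This loop, of 25 kb pixels, spanned 625 kb from chr5:146675001-146700000 to chr5:147300001-147325000. The upper anchor held all of Cdx2 and Urad and contained the 5 kb anchor just described. The peak score was 3.79, at percentile 46.0 of loops of 25 kb pixels. When loops of 5 and 10 kb pixels alone were used, Cdx2 no longer counted as at an anchor and its nearest anchor was 7.75 kb away.

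Cdx1 (chr18:61018862-61036199) lay inside 2 nested loops of 5 kb pixels that ended at the same upper anchor, chr18:61065001-61070000. That anchor was in Pdgfrb, a growth factor receptor gene 8.93 kb from Cdx1. The inner loop spanned 80 kb and began at Camk2a, a gene of a neuronal kinase. Its anchors lay 28.9 and 28.8 kb to either side, so Cdx1 stood near the middle, with Slc6a7 and the predicted gene Gm52351 as the other genes inside. The outer loop spanned 210 kb. Another loop, of 120 kb, shared the lower anchor of the outer one and ended 38.9 kb short of Cdx1. The peak scores of the inner, outer and last loop were 3.79, 4.93 and 4.57, at percentiles 12.3, 52.1 and 40.0 of their pixel size. With 6 loops anchored within 500 kb, Cdx1 had the most of the 9 genes.

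Tal1 (chr4:115056426-115071755), the bHLH regulator of blood formation, had an anchor over its start sites. Both starts in the table, at 115056426 and 115057811, lay in the anchor chr4:115050001-115060000, and the gene's other end lay outside it. The loop ran downstream over the gene body to chr4:115930001-115940000, 880 kb away, inside Dmbx1, a homeobox gene of the developing brain. The peak score was 8.71, at percentile 98.8 of loops of 10 kb pixels, and the peak pixel was at percentile 94.6. Both measures of the caller thus put it among the strongest of its pixel size, and its span, at percentile 91.0, among the longest.

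The loop from Tal1 enclosed 18 protein-coding genes. They included Pdzk1ip1, which is next to Tal1, and a run of Cyp4 cytochrome P450 genes. A pair of smaller loops lay inside it. One spanned 600 kb from Cyp4x1, 28.2 kb from Tal1 (3.52), and the other spanned 230 kb from Cyp4a30b (5.05), and they ended at overlapping anchors. On the other side of Tal1, past Stil, a gene 13.2 kb away that is fused with it by deletion in human T cell leukaemia, a loop of 260 kb ended 136 kb from Tal1 (4.41).

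**Figure D2:**
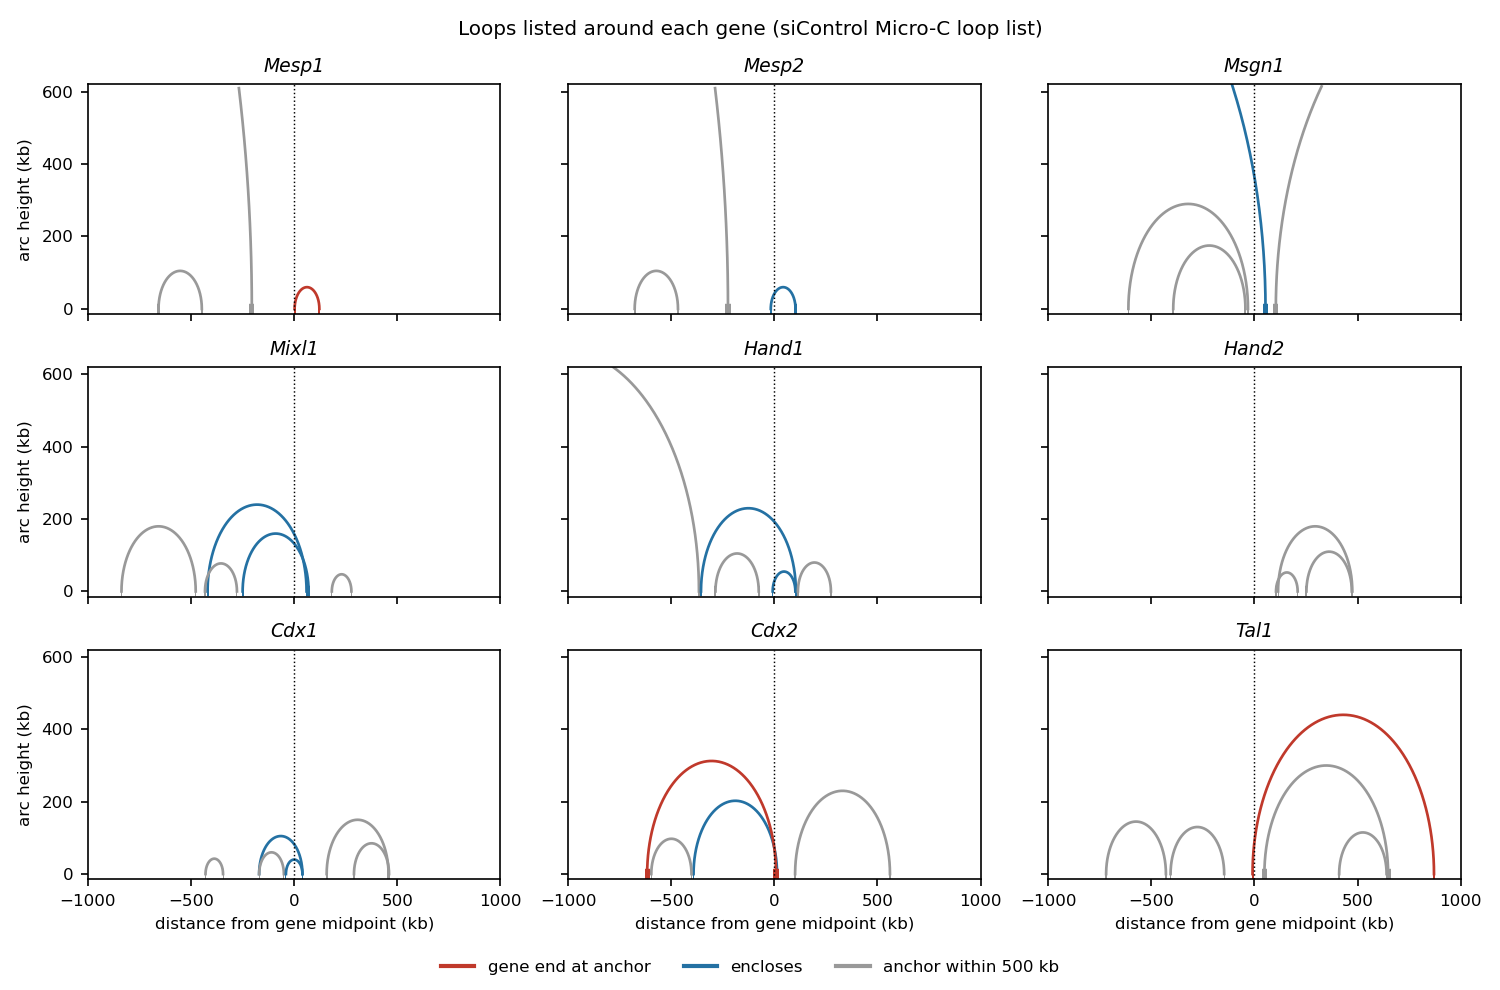
Loops around each of the 9 genes, with the distance from the gene's midpoint in kb on the x axis (dotted line at 0) and arcs that join the midpoints of the anchors, whose height in kb grows with the span. Red arcs have an anchor at a gene end, blue arcs enclose the gene, grey arcs only have an anchor within 500 kb, and arcs of loops that reach past the frame, such as the 2525 kb loop at Msgn1, are cut off. Red arcs start at Mesp1, Cdx2 and Tal1, and all arcs of Hand2 lie to 1 side of it.

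Ordered by the distance to the nearest anchor, Mesp1, Tal1 and Cdx2 came first at 0 kb. Hand1, at 3.71 kb, differed from them by less than the 5 kb width of the finest anchors and cannot be ordered against them. Mesp2 was at 10.7 kb from an anchor 10 kb wide, and the anchor at Cdx2 was 25 kb wide. By these widths, Mesp2 cannot be ordered against Hand1 or Cdx2. Msgn1 at 28.4 kb and Cdx1 at 28.8 kb differed by less than the 5 kb width of their anchors and cannot be ordered against each other. Mixl1 at 53.0 kb and Hand2 at 100.5 kb were last. The median was 10.7 kb, against 59.9 kb (quartiles 8.09 and 224 kb) over all protein-coding genes. It is the value of Mesp2, measured to the same anchor that put Mesp1 at 0 kb. The number of loops with an anchor within 500 kb ranged from 3 to 6, with a median of 4 against 3 over all genes. The distances differed from those of all genes more than the number of loops nearby did, and neither difference was tested.

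**Figure D3:**
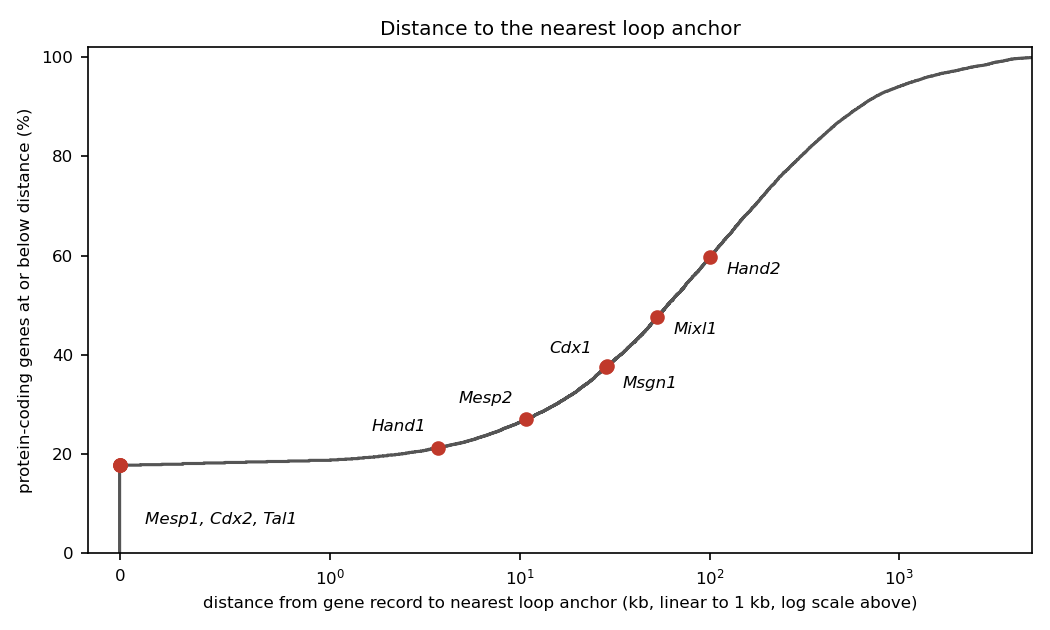
Cumulative share of all 21631 protein-coding genes (y axis, percent) by distance from the gene record to the nearest loop anchor (x axis, kb, linear up to 1 kb and logarithmic above). Red points mark the 9 genes on this curve; Hand2 at 100.5 kb is the only one beyond the median of all genes of 59.9 kb.

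The loops at or around the 9 genes did not share a score or a size. Over the 11 loops with an anchor at a gene end or that enclosed a gene, the span ranged from 80 to 2525 kb with a median of 405 kb, against 325 kb over all loops. Of the 11, 8 were taken because they enclosed a gene, and a longer loop is more likely to do so. The part of this choice in the median span was not tested. Their peak scores ranged from 3.42 to 8.71 with a median of 4.42, against 4.16 over all loops. Within their pixel size, the scores ran from percentile 12.3, the inner loop of Cdx1, to percentile 98.8, the loop of Tal1, with a median of 52.1. Genes with an end at an anchor were at no particular level of score, since the loops of Mesp1, Cdx2 and Tal1 were at percentiles 21.0, 46.0 and 98.8. With only loops above the median score of their pixel size, Tal1 alone kept a gene end at an anchor, and 4.72% of all genes did.

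**Figure D4:**
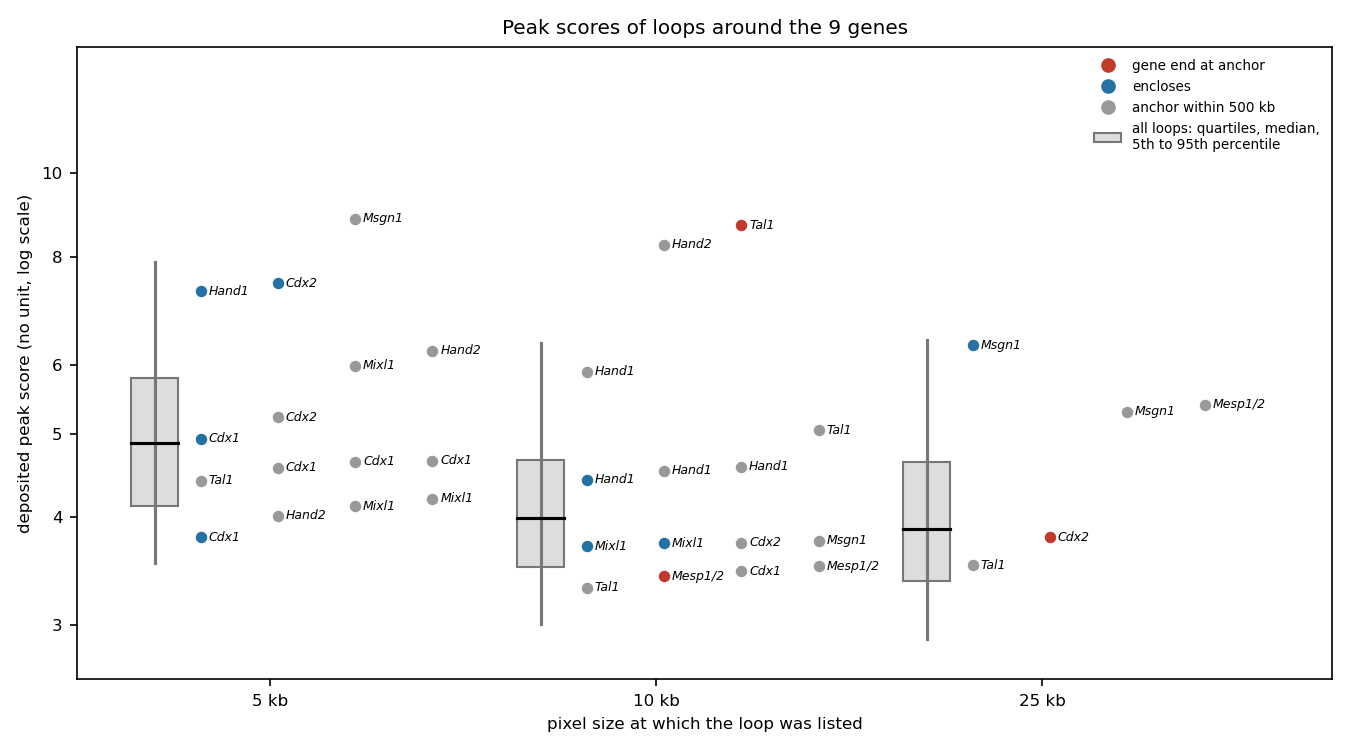
Deposited peak score (y axis, no unit, log scale) of the 35 loops around the 9 genes, by the pixel size at which they were listed (x axis), coloured by relation to the gene named beside each point. Grey boxes give the quartiles and median of all loops of that pixel size and lines their 5th to 95th percentiles; a loop each of Tal1 (8.71), Hand2 (8.26) and Msgn1 (8.86) lies above those lines, and the loop at Mesp1 (3.42) lies below its box.

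By the relations given next, other genes of mesoderm and blood formation showed loops in smaller shares than the 9 and larger shares than all genes. Of 44 related genes, 9 had a gene end at an anchor (20.5%), 21 were enclosed by a loop (47.7%) and 41 had an anchor within 500 kb (93.2%), beside the 9.04%, 32.6% and 87.4% of all genes given above. Their median distance to an anchor was 13.7 kb. By other measures they were close to the 9. Any overlap with an anchor was found for 31.8% of them, 33.3% of the 9 and 17.7% of all genes. The median number of loops within 500 kb was 4 in both sets and 3 over all genes. With 5 and 10 kb pixels, 8 of the 44 and 2 of the 9 had a gene end at an anchor, beside 7.16% of all genes. None of these differences was tested. Ripply2, a somite gene, Etv2, a factor that acts before Tal1 in blood and vessel precursors, and Gata1, a factor of red cells, had no anchor within 500 kb. T (Brachyury), which marks the whole primitive streak, had its nearest anchor 168 kb away, and Tbx6, its relative in presomitic mesoderm, 24.5 kb away.

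The 9 related genes at anchors came from several steps of mesoderm and blood formation. Eomes, a T-box factor of the streak, had a loop of 445 kb (peak score 7.15). Pdgfra, a receptor of paraxial mesoderm, had loops of 210 and 350 kb (5.76 and 4.05), and Fgf8, a secreted signal of the streak, had loops of 500 and 170 kb (4.04 and 4.46). The first loop of Fgf8 ended at Lbx1, a homeobox gene of migrating muscle precursors. Foxc1 and Foxc2, forkhead factors of paraxial mesoderm, had loops of 400 and 395 kb (3.79 and 4.06). The start sites of Eomes and Foxc1 lay in no anchor, so only the other gene end did. Of 33 related genes in the promoter table, 5 had a start site in an anchor (15.2%), beside 5.20% of all genes there. Tbx3 and Tbx5, T-box genes of limb and heart on the same chromosome, had loops of 1425 and 230 kb (3.997 and 3.16).

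In the blood branch, the partners and relatives of Tal1 were not alike. Lyl1, its closest relative, had a loop of 110 kb from an anchor that also held an end of Nfix (peak score 5.64), and Gata2, a stem cell factor, had loops of 660 and 300 kb (4.06 and 4.03). Lmo2, which bridges Tal1 and Gata factors, lay 13.1 kb from an anchor and inside a loop of 125 kb. Runx1, needed for the first blood stem cells, overlapped anchors and had a start site inside an anchor, though neither end of its gene record lay in one. Ldb1 and Tcf3, which join Tal1 in its complex, lay 11.5 and 160 kb from an anchor and were enclosed by no loop. Cdx4, a Cdx gene on the X chromosome, lay inside 2 loops, the smaller of 110 kb, and 39.8 kb from an anchor.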

How the data were processed

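The authors deposited 1 loop list for 2 Micro-C samples of 1 group. The submitters' processing notes name mm10 as build and Juicer 1.5.6 as a tool. The caller, thresholds, depth and any pooling of samples were not given in the sources used here, and columns carry no names. The deposited peak score, the deposited fraction (a probability-like value) and the deposited signal of the peak pixel were identified from their values and order, so these names are inferred, and the contact map's normalization is unknown.

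Starts were made 1-based. Genes came from RefSeq's GRCm38.p6 table, the same assembly as mm10 (chromosomes 1 to 19 and X, 21631 protein-coding records). Start sites and sequences came from the RefSeq promoter table. A gene end at an anchor is the first or last base of a gene record inside an anchor. An enclosed gene lies between the inner edges of both anchors. Distance runs from the gene record to the nearest anchor edge, span between anchor midpoints. Percentiles are among loops of the same pixel size. Counts were checked on simulated loops (Python 3.11.15, pandas 2.3.3).

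The genes and the related list were chosen with earlier results of these data known. Genes named are the 9, genes at or between the anchors of their loops, and related genes at anchors. Lbx1 and Nfix were named because they had an end at an anchor of a related gene's loop, and Stil as a neighbour of Tal1. Ldb1, Tcf3, Lmo2, Runx1, Cdx4, T, Tbx6 and the related genes without a near anchor were named after their values were seen.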

Additional observations from a re-analysis of the deposited data

How the results depend on the processing

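No paired analysis was possible because both samples stand behind 1 list without separate values, so no replicate could be left out either. Of 19 alternative values, 15 kept their level (a count within 1.5 times, a median with no change) and 4 moved. Any overlap with an anchor, widened anchors and outer anchor edges could only keep or raise a count. The rule also took a fall from 3 to 2, or from 6 to 4, as the same level. The 15 are therefore no measure of how stable the results are. With loops above the median score of their pixel size, 1 of the 9 genes had a gene end at an anchor (Tal1), the median distance to an anchor was 28.8 kb (179 kb over all genes), and the median number of loops within 500 kb was 2 (1 over all genes). With loops of 5 and 10 kb pixels, that number was 3, the same as the 3 over all genes. These settings use fewer loops. With 5 and 10 kb pixels, 2 genes had an end at an anchor (Cdx2 was lost), beside 7.16% of all genes. With anchors widened by 5 kb, 4 did (Hand1 was gained), and all genes rose to 16.2%. Enclosed genes numbered from 4, with loops above the median score, to 8, with outer anchor edges. The shares of all genes at these settings were 21.5% and 35.5%. The use of start sites was chosen after seeing the data. Anchor widths of 5 to 25 kb limit every position given.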

Other observations

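Non-coding records also had ends at the anchors of these loops. The anchor at Tal1 held an end of the lncRNA records Gm33786 and Gm52674, the anchor at Mesp1 held the pseudogene Gm44705, and the upper anchor of the smaller loop around Mixl1 held an end of the lncRNA Gm38293. The lower anchor of the outer loop around Cdx1 held an end of the lncRNA Gm41744.

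Some loops beside the 9 genes enclosed other developmental genes. The loop of 1925 kb from Smc6 beside Msgn1 held Mycn, a growth-promoting transcription factor. The loop of 260 kb beside Tal1 held Foxd2, a forkhead factor, as its only whole protein-coding gene.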
